A study of Mus musculus with 4 samples.

Results

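Transitory effector T cells (transitory Teff) are the CD8+ T cells that the study placed between naive T cells (Tn) and the effector (Teff) and exhausted (Tex) cells of the bone marrow (BM). The deposited cell table gives every cell both a cell type name and a cluster number, and for most cells the 2 say the same. Each number was given the name that most of its cells carry. Of the 11754 cells, 1891 carry the name transitory Teff, and 567 of them (30.0%, exact 95% interval 27.9% to 32.1%) hold a number that belongs to another name. The number belongs to TIM-3+ Tex in 287 of these cells, to GzmB+ Teff in 205 and to Tn in 66, and the last 9 are spread over other numbers. The other 1324 transitory Teff hold the transitory Teff number and are called agreeing cells here. No cell was chosen for the level of a gene, but name and number were both set by the authors from the expression of these cells, so differences in gene level between the classes describe them and carry no p-value.

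The cells come from 4 groups of mice that bore Vk12653 myeloma, a transplantable tumour from the Vk*MYC mouse model, and received a stem cell transplant (SCT) of BM and T cells. The groups were given TIGIT inhibition + vehicle, isotype control + lenalidomide, TIGIT inhibition + lenalidomide, or isotype control + vehicle, with the antibody from the day of transplant and lenalidomide or vehicle from day 14 to harvest on day 28, week 4 post-SCT. Recipients were on a C57Bl/6 background and were wild-type or CRBN-transgenic mice with donors of the same genotype, and the transgene alters cereblon so that lenalidomide can act in mouse cells. CD8+ T cells were sorted from the BM of 5 mice pooled per group, so each group is 1 library without a replicate. The cell table numbers the libraries 1 to 4 and no label ties a number to a treatment, so values are given by library number and no treatments are compared.

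CD8+ T cells that meet a persistent antigen pass through a self-renewing progenitor state marked by TCF-1, ID3 and SLAMF6, and from there through a CX3CR1+ transitory effector state to terminally exhausted cells that hold PD-1, TIM-3, LAG-3 and TOX. Progenitors make little granzyme, transitory cells carry cytotoxic molecules and integrins, and naive cells keep CCR7 and the IL-7 receptor.

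The 4 libraries hold between 1725 and 4237 cells and between 15556967 and 38440687 unique molecular identifiers (UMIs, 1 per captured RNA molecule). Cell barcodes found in more than 1 library numbered 56, and 5 disagreeing transitory Teff carry such a barcode. No such pair of cells had the same clonotype. The name was checked for the agreeing cells with 1 marker, against the 3 cell types the other numbers belong to. As the name was set from the same expression, this is no separate evidence for it. Cx3cr1, the fractalkine receptor of transitory cells, stood at 79.0, 78.1, 79.3 and 69.8 CPM (UMI counts scaled to a common total per library and class) in libraries 1 to 4 of the agreeing cells and at 39.6, 35.7, 69.7 and 30.4 CPM in cells named and numbered TIM-3+ Tex, 14.5, 17.8, 7.35 and 18.3 CPM in GzmB+ Teff and 0, 1.63, 0.749 and 0.32 CPM in Tn. In every library the agreeing cells held more Cx3cr1 than those 3 cell types. The remaining names were not compared.

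Disagreement was much more frequent under the name transitory Teff than under any other name. Among the other 7 names the share of cells whose number belongs elsewhere ran from 0.467% in cycling cells to 6.97% in GzmB+ Teff. The reverse was rare, as 49 cells with the transitory Teff number carry another name, 28 of them GzmB+ Teff, 18 Tn, 2 cycling cells and 1 TIGIT+ Teff. Within transitory Teff, 28.2% of the 568 cells of library 1 disagreed, 25.4% of 473 in library 2, 18.2% of 198 in library 3 and 38.5% of 652 in library 4. The exact 95% interval of library 4, 34.7% to 42.4%, lies above those of the other 3 libraries, of which the highest upper limit is 32.1%. The intervals cover counting error only, and each library is 1 pool of mice.

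The 3 classes differed in how they spread over the libraries. TIM-3+ Tex numbers were held by 12.9%, 14.6%, 5.56% and 20.6% of the transitory Teff of libraries 1 to 4, and GzmB+ Teff numbers by 10.0%, 6.98%, 4.55% and 16.3%. Both classes were smallest in library 3 and largest in library 4. Tn numbers ran the other way, at 4.75%, 3.81%, 6.57% and 1.23%. Library 3 holds only 11 TIM-3+ Tex numbered and 9 GzmB+ Teff numbered transitory Teff, so the gene ratios of those 2 classes use libraries 1, 2 and 4, while the level in library 3 is still given.

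**Figure D1:**
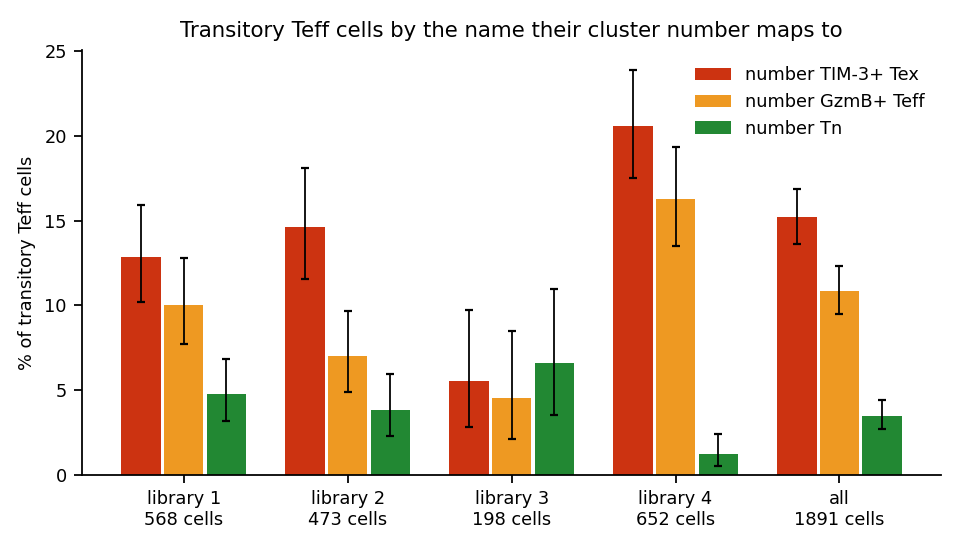
Percent of transitory Teff cells (vertical axis) whose cluster number belongs to TIM-3+ Tex, GzmB+ Teff or Tn, for each library and for all 1891 cells; bars are shares and error bars exact 95% intervals for counting error. Library 4 has the tallest TIM-3+ Tex and GzmB+ Teff bars (20.6% and 16.3%) and the shortest Tn bar (1.23%).

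On the deposited UMAP, a 2-dimensional map of all cells by expression, the 3 classes were not scattered through the transitory Teff. Each formed a patch at the side of the transitory Teff that faces the cell type its number belongs to. Of the 15 nearest neighbours of a TIM-3+ Tex numbered cell, 91.8% on average were of the same class, 4.51% were cells named TIM-3+ Tex and 2.09% were agreeing transitory Teff. For GzmB+ Teff numbered cells these shares were 96.0%, 1.46% and 1.14%, and for Tn numbered cells 90.8%, 8.59% and 0.505%, with Tn as the cell type. Agreeing cells had agreeing cells as 97.2% of their neighbours. The map was drawn from the same expression values as the clusters and is no separate evidence for the classes.

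**Figure D2:**
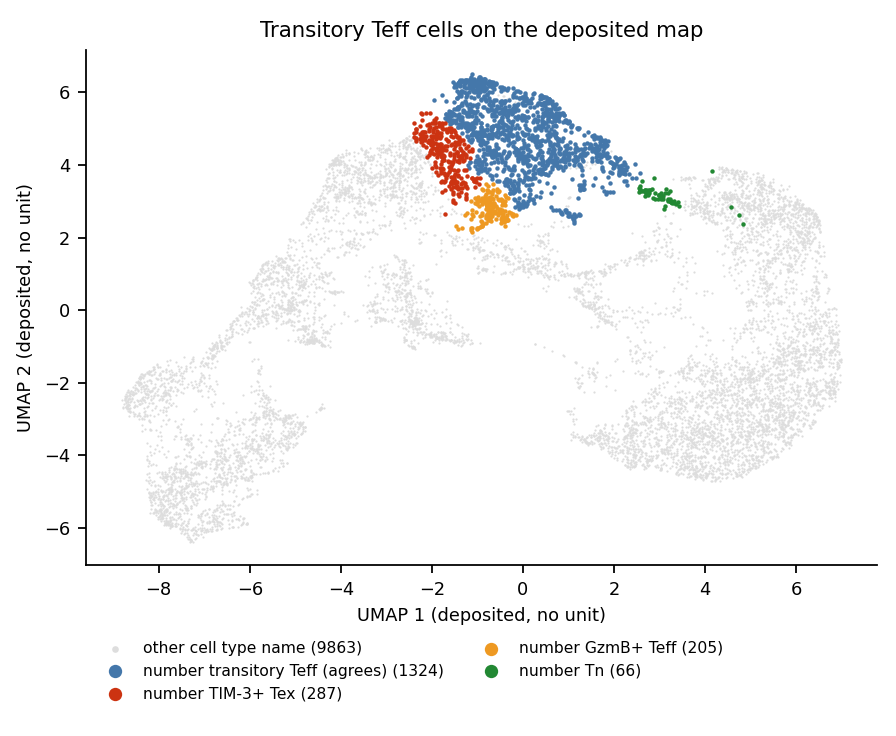
Deposited UMAP coordinates (no unit) of all cells, with transitory Teff coloured by the name their cluster number belongs to and cells of other names in grey; the 9 transitory Teff of other numbers are not drawn. The 287 TIM-3+ Tex numbered, 205 GzmB+ Teff numbered and 66 Tn numbered cells form 3 patches along the edge of the 1324 agreeing cells, the first 2 side by side.

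The T cell receptor (TCR), which each T cell fixes once and passes to its daughters, was read in a separate library. Transcripts of TCR genes are also in the count table, and whether they entered the authors' clustering is not given in the sources used here. A clone is here a set of cells of a library with the same deposited clonotype. Of the TIM-3+ Tex numbered cells with a TCR, 74.5% had the clonotype of an agreeing transitory Teff, as had 66.7% of GzmB+ Teff numbered and 11.4% of Tn numbered cells. The TCR sequences of 5 clonotypes show how the classes meet. The first 2 are the clonotypes with the most TIM-3+ Tex numbered cells in libraries 1 and 2, the third is the library 4 clonotype with the most GzmB+ Teff numbered cells, the fourth is the most frequent clonotype of GzmB+ Teff numbered cells in library 2, and the fifth is 1 of the single Tn numbered cells of library 1. Each line gives the CDR3, the stretch of the chain that meets peptide, 5′ to 3′, with the first and last codon in capitals; those codons are the cysteine and phenylalanine that frame the loop.
Library 1 clonotype, TRA (TRAV16N, TRAJ49): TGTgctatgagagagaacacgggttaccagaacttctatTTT
Library 1 clonotype, TRB (TRBV1, TRBJ2-1): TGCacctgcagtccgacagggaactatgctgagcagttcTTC
Library 2 clonotype, TRA (TRAV9-1, TRAJ45): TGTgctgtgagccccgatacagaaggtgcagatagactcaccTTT
Library 2 clonotype, TRB (TRBV17, TRBJ2-7): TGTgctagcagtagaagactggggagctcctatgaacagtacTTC
Library 4 clonotype, TRA (TRAV9-4, TRAJ50): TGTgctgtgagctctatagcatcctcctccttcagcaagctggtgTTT
Library 4 clonotype, TRB (TRBV16, TRBJ2-7): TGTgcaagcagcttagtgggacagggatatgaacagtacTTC
Library 2 GzmB+ Teff numbered clonotype, TRA (TRAV14-1, TRAJ23): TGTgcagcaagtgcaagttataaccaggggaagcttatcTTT
Library 2 GzmB+ Teff numbered clonotype, TRB (TRBV19, TRBJ2-7): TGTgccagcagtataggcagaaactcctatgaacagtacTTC
Library 1 Tn numbered cell, TRA (TRAV12-2): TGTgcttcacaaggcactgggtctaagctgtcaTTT
Library 1 Tn numbered cell, TRB (TRBV14): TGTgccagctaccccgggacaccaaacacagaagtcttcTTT

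In GRCm38 (mm10) the V segments of the first 4 lie on the plus strand, Trav16n at chr14:53351028-53351621, Trav9-1 at chr14:53488045-53488567, Trav9-4 at chr14:53676141-53676630, Trav14-1 at chr14:53554022-53554558, Trbv1 at chr6:40891229-40891885, Trbv17 at chr6:41163062-41163556, Trbv16 at chr6:41151740-41152230 and Trbv19 at chr6:41178375-41179048. The library 1 clonotype held 12 TIM-3+ Tex numbered, 7 GzmB+ Teff numbered and 19 agreeing transitory Teff beside 74 cells named TIM-3+ Tex and 39 cycling cells, of 170 cells in all. The library 2 clonotype held 12 TIM-3+ Tex numbered and 52 agreeing transitory Teff beside 20 TIM-3+ Tex, of 110 cells. The library 4 clonotype held 11 TIM-3+ Tex numbered, 19 GzmB+ Teff numbered and 37 agreeing cells beside 22 TIM-3+ Tex and 28 cycling cells, of 133 cells. Another library 4 clonotype, with TRBV5 and not printed, held 12 TIM-3+ Tex numbered cells and only 3 agreeing cells beside 49 TIM-3+ Tex, of 75 cells. A library 4 clonotype with the printed TRB sequence and no TRA call held 8 TIM-3+ Tex numbered, 5 GzmB+ Teff numbered and 17 agreeing cells among 64 cells. The GzmB+ Teff numbered clonotype of library 2 held 5 such cells, 2 agreeing cells and 8 cycling cells of 16, and no TIM-3+ Tex.

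A TCR was called in 78.4% of agreeing cells, 75.3% of TIM-3+ Tex numbered, 68.8% of GzmB+ Teff numbered and 66.7% of Tn numbered cells. Of the cells with a TCR, those in clones of 2 or more cells made up 92.7%, 83.7%, 81.8% and 88.1% of TIM-3+ Tex numbered cells in libraries 1 to 4. The agreeing cells stood at 72.2%, 70.9%, 72.5% and 75%. Every library was higher in the TIM-3+ Tex numbered class, by 13.9 percentage points on average (9.35 to 20.5). GzmB+ Teff numbered cells stood at 92.1%, 76.0%, 60.0% and 87.7%, above the agreeing cells in 3 libraries and below them in library 3, where 5 cells had a TCR. Tn numbered cells stood at 18.8%, 28.6%, 0% and 0%, lower than agreeing cells in every library by 60.8 points on average, with 7 of 44 cells in a clone in all (15.9%, exact 95% interval 6.64% to 30.1%). The exact two-sided sign-flip permutation test over the 4 libraries gave p = 0.13 for the TIM-3+ Tex and Tn differences, the smallest value it can give, and 0.225 after Benjamini-Hochberg adjustment over the 9 TCR differences, so with 4 libraries this test cannot pass 0.05. For the GzmB+ Teff difference the exact permutation p was 0.375 (adjusted 0.482).

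Of the 95 clonotypes of TIM-3+ Tex numbered cells, 50.5% also occurred in cells named and numbered TIM-3+ Tex, against 13.1% of the 464 clonotypes of agreeing cells. As many of the 95 occurred in agreeing transitory Teff (50.5%), and 53.7% occurred in cycling cells against 22.2% for agreeing cells. The difference in sharing with TIM-3+ Tex was 40.1 points on average over libraries (24.1 to 50.8, exact permutation p = 0.13, adjusted 0.225). Sharing with agreeing transitory Teff and with cycling cells was not tested. Of the 83 clonotypes of GzmB+ Teff numbered cells, 26.5% occurred in GzmB+ Teff against 12.9% for agreeing cells, a difference of 10.6 points (5.29 to 16.2, same p). More of those 83 occurred elsewhere, 59.0% in cycling cells, 49.4% in agreeing transitory Teff and 42.2% in TIM-3+ Tex. Of the 44 clonotypes of Tn numbered cells, 11.4% occurred in agreeing transitory Teff, and the difference in sharing with Tn was 0.69 points with 2 libraries in either direction. A clonotype with many cells is more likely to be found in any other class, and the effect of clone size on these shares was not tested.

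**Figure D3:**
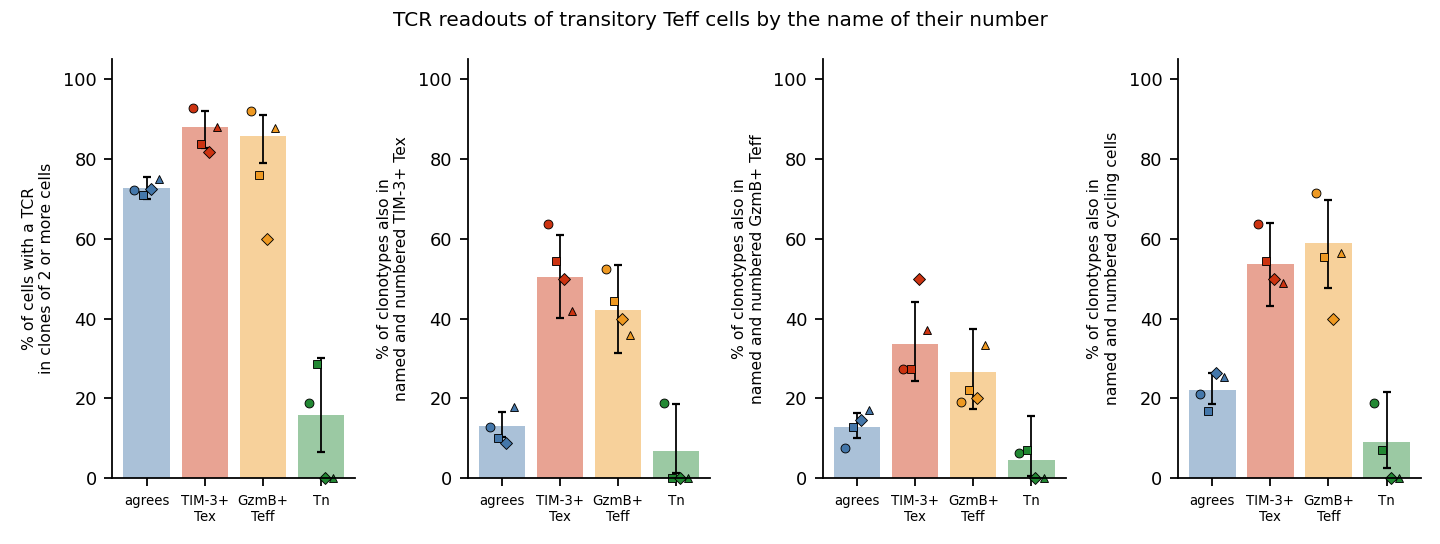
TCR readouts of transitory Teff by the name their number belongs to: percent of cells with a TCR that are in clones of 2 or more cells, and percent of clonotypes also found in named and numbered TIM-3+ Tex, GzmB+ Teff and cycling cells; bars pool the libraries with exact 95% intervals for counting error, and the symbols are libraries 1 to 4. TIM-3+ Tex numbered cells are highest in the second panel (50.5%) and Tn numbered cells lowest in the first (15.9%).

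Gene levels were compared within each library as the log2 ratio of CPM plus 10 in a class over that in the agreeing cells, and the mean over libraries weighs them alike. A gene was tested where it reached 50 CPM on either side and was called where the mean passed 1.5-fold with the same direction in every library used. Where 4 levels are given they are those of libraries 1, 2, 3 and 4, and a value in parentheses after a gene is its mean log2 ratio to agreeing cells. All disagreeing cells together differed from the agreeing cells in 98 of 2852 genes (3.44%), 43 higher (1.51%) and 55 lower (1.93%). Taken apart, 107 of 2841 genes (3.77%) were called in TIM-3+ Tex numbered cells, 317 of 2958 (10.7%, of which 4.94% higher and 5.78% lower) in GzmB+ Teff numbered cells and 725 of 3129 (23.2%, of which 11.1% higher and 12% lower) in Tn numbered cells. The last count comes from library 1 alone, where no second library can remove a gene.

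GzmB+ Teff numbered transitory Teff held little of the gene their number is named for. Gzmb, which encodes the granule protease granzyme B (chr14:56258838-56262260, minus strand), stood at 43.1, 47.8, 35.9 and 41.2 CPM in these cells, at 691, 324, 753 and 360.1 CPM in agreeing cells and at 574, 541, 490.1 and 580.3 CPM in cells named and numbered GzmB+ Teff. The class was lowest in every library, with a mean log2 ratio to agreeing cells of -3.04 (-3.72 to -2.53). After thinning each cell to 2500 UMIs, 6.83% of the class had a Gzmb UMI, against 45.3% of agreeing cells, 46.3% of GzmB+ Teff and 7.79% of Tn, naive cells that should lack it, at median depths of 9240, 5096, 7833 and 7873 UMIs before thinning. The share lies at the background level, and the class is described here by its number and its leading genes, not as GzmB+ Teff.

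Most genes of the progenitor list stood higher in this class than in agreeing cells. Xcl1 (chr1:164931644-164935527, minus strand), the chemokine that draws XCR1+ dendritic cells, stood at 2716, 1367, 2037 and 2629.9 CPM against 107, 249.5, 143 and 582 CPM in agreeing cells and 419, 187, 168 and 557 CPM in GzmB+ Teff. All 4 libraries of the class lay above every library of both other cell groups, and the mean log2 ratio to agreeing cells was 3.04 (2.16 to 4.55). Thinned to equal depth, 78.5% of the class had an Xcl1 UMI, 15.3% of agreeing cells, 34.2% of GzmB+ Teff and 13.3% of Tn. Id3, an inhibitor of E protein transcription factors kept in progenitors (chr4:136143497-136145755), stood at 259, 267, 311 and 263 CPM against 55.5, 41.5, 24.9 and 90.5 CPM, and Slamf6, a surface receptor of progenitors, at 257, 242, 276 and 291 CPM against 78.6, 101, 65.0 and 124.9 CPM. Neither gene's groups overlapped, with mean log2 ratios of 1.97 and 1.31.

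Of the 7 progenitor genes tested, 6 were higher in this class and 0 lower, with a median log2 ratio of 1.86 beside 0.01 over all genes tested. Beside Xcl1, Id3 and Slamf6 these were Cxcr5, a homing receptor for follicles (1.88), Cd200, a surface ligand that restrains myeloid cells (1.86), and Icos, a costimulatory receptor (0.94). The costimulatory receptor Cd28 was not called (0.55). Tcf7, which encodes TCF-1 and was listed with the naive genes, stood at 229, 259, 264 and 245 CPM against 119, 116, 71.7 and 128 CPM, higher in every library (0.96). The naive list itself was split: Dapl1 and Tcf7 were higher, the egress receptor gene S1pr1 (-1.43), its regulator Klf2 (-2.19) and Il7r (-1.35) were lower, and Lef1 was not called.

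Inhibitory receptors and exhaustion genes stood higher as well, 7 of 8 tested with 0 lower and a median log2 ratio of 0.78. Pdcd1, which encodes PD-1, stood at 374, 450.0, 311 and 410.3 CPM against 167, 203, 178 and 207 CPM in agreeing cells, with no overlap (1.06). The cells named and numbered GzmB+ Teff held less, 131, 154, 89.4 and 155 CPM. Lag3 (0.71), Tigit (0.68), Cd160 (0.85) and Rgs16, a brake on G protein signalling (1.64), were also higher. Tox, the transcription factor of the exhausted state, was called (0.62) on libraries 1, 2 and 4, while the 9 cells of library 3 stood at 228 CPM, below the 247 CPM of its agreeing cells. Havcr2, which encodes TIM-3, did not reach the level for a test. The nuclear receptor gene Nr4a2 (1.75), and Egr2 (1.95), Nr4a1 (1.72), Egr1 and Jun among the immediate early genes that TCR signals switch on, were higher, whereas Ier2 and Ier3 of that list were lower and 7 of its 13 tested genes were not called.

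The cytotoxic and transitory effector programmes were lower in the class. Of 8 cytotoxic genes, 6 were lower and 0 higher (median -0.86), among them Gzma (-1.96), the pore-forming Prf1 (-0.72) and Nkg7, a granule membrane protein gene (-0.60). Ccl5, which encodes the chemokine RANTES, stood at 5740.2, 5346, 7775 and 5226 CPM against 30873, 23424, 31099 and 21875 CPM, without overlap (-2.21). Cx3cr1 (-1.68), the T-bet gene Tbx21 (-0.70) and Id2 (-0.97) were lower of the 5 transitory effector genes tested, and Gzmk was not, at 574, 442, 168 and 487 CPM against 498, 493, 607 and 535 CPM. The largest decreases after Gzmb were in Lgals3, which encodes galectin-3 (-2.92), Ccl5, Klf2, the calcium-binding S100a4 (-2.18) and S100a6 (-2.09), Wdr95 (-2.06) and Ifngr1, the interferon-γ receptor chain (-2.03). So 3 of the 5 transitory effector markers tested stood lower in this class than in the cells whose name it carries, and 0 stood higher.

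The largest increases of all were in genes with few counts in agreeing cells. Nrgn, which encodes neurogranin, a calmodulin-binding protein, stood at 227, 498, 431 and 267 CPM against 21.0, 25.2, 12.4 and 21.7 CPM (3.31, 2.94 to 3.85). All 4 libraries were higher. Penk, the proenkephalin gene, stood at 245, 45, 95.8 and 255 CPM against 2.88, 0.494, 0 and 19.5 CPM, and 5 cells held 54.8% of its UMIs in the class. Tnfrsf4, which encodes OX40 (2.60), Nrn1 (2.51), 1700019D03Rik (2.51), the tetraspanin gene Cd81 (2.33) and Cxcl10, a CXCR3 ligand (2.31), completed the 8 largest increases. Of these 5, Tnfrsf4, Nrn1, 1700019D03Rik and Cxcl10 had no UMI among the 9 library 3 cells. Ikzf2 (1.81), Crtam (1.53) and Batf (1.10), transcription factor and adhesion genes named after their values were seen, were higher too. Cd4 stood at 0.96 CPM and Foxp3 at 0 over the class. Of 7 T cell identity genes tested, 1 was called lower, the CD8β chain gene Cd8b1, and 0 were higher. Cd8a (0.30) was not called.

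Set against the cells named and numbered GzmB+ Teff, more genes were called than against agreeing cells, 470 of 2960 genes (15.9%), 216 higher (7.3%) and 254 lower (8.58%). Cxcl10 was among those that stood lower there, at 56.8, 30.9, 0 and 116 CPM against 272, 286, 83.3 and 230.1 CPM. These cells were also deeper than agreeing cells. Their median UMI count was 9240 against 5096, higher in every library (log2 ratio 0.65, 0.30 to 1, exact permutation p = 0.13, adjusted 0.225), and their median mitochondrial share was 2.42% against 1.61%, also higher in every library. A second TRB chain was found in 14.9% of 141 cells with a TCR against 6.17% of 1038, and a macrophage or plasma cell UMI in 68.3% against 36.4% of cells, a share not thinned to equal depth. The 10 genes of that list summed to 212, 155, 47.9 and 202 CPM in libraries 1 to 4 against 112, 127, 102 and 149 CPM, which was higher in 3 libraries and lower in library 3. Without cells that had a second TRB chain, 319 genes were called, 290 of them among the 317. Among cells without a macrophage or plasma cell UMI 634 were called, 227 of them among the 317. Their part in the differences was otherwise not tested. Under median-of-ratios scaling, 32.6% of the called genes were higher in place of 46.1%.

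In TIM-3+ Tex numbered transitory Teff the levels of Pdcd1, Lag3 and Tigit lay near those of TIM-3+ Tex, while Havcr2 lay lower. No granzyme gene was called against agreeing cells, where 3.77% of all genes tested were called. Against cells named and numbered TIM-3+ Tex only 43 of 2872 genes were called (1.5%), 9 higher (0.313%) and 34 lower (1.18%), and against agreeing cells 42 were higher (1.48%) and 65 lower (2.29%). Among the 42 higher genes were 6 exhaustion genes and the inflammatory chemokine genes Ccl3 and Ccl4. Lag3, an inhibitory receptor for MHC class II, stood at 719, 621, 850.4 and 491 CPM against 213, 256, 229 and 279 CPM in agreeing cells and 723, 682, 918 and 595 CPM in TIM-3+ Tex. Pdcd1 stood at 453, 510.5, 543 and 407 CPM against 167, 203, 178 and 207 CPM and 549, 497, 507 and 479.6 CPM. Neither gene's levels overlapped between the class and the agreeing cells, with mean log2 ratios of 1.25 (0.79 to 1.71) and 1.21 (0.94 to 1.39). Thinned to equal depth, a Pdcd1 UMI was found in 67.2% of the class, 30.9% of agreeing cells, 69.7% of TIM-3+ Tex and 1.36% of Tn.

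Of 10 exhaustion genes tested, 6 were higher and 0 lower, with a median log2 ratio of 0.84 beside 0.02 over all genes. The other 4 were Rgs16 (1.58), Nr4a2 (1.09), Tigit (0.95) and Tox (0.73), and Ctla4, Entpd1, Cd160 and Nfatc1 were not called. Havcr2 itself lay below the level for a test in the libraries used, at 45.8, 45.3, 72.4 and 44.3 CPM against 14.8, 11.4, 22.9 and 6.15 CPM in agreeing cells and 74.7, 88.0, 101 and 73.9 CPM in TIM-3+ Tex. A Havcr2 UMI was found at equal depth in 10.5% of the class, between the 2.49% of agreeing cells and the 17.0% of TIM-3+ Tex, with 0.378% in Tn.

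The chemokine genes Ccl3 and Ccl4, neighbours on chromosome 11 (chr11:83647844-83649355 and chr11:83662584-83664683) that encode inflammatory chemokines, stood between the 2 cell types. Ccl3 was at 1331, 899, 1646 and 859.9 CPM in the class, 249.7, 333, 508 and 363 CPM in agreeing cells and 2288, 1987, 4117 and 1889.9 CPM in TIM-3+ Tex. In every library the order was the same, with mean log2 ratios of 1.67 to agreeing cells and -1.01 to TIM-3+ Tex. Ccl4 was 1.78 above agreeing cells (1.68 to 1.84), while Ccl5, Ifng and Xcl1 were not called. Adgrg1, which encodes the adhesion receptor GPR56 of cytotoxic lymphocytes, had the largest increase, from 13.6, 9.39, 7.65 and 9.41 CPM to 75.6, 67.0, 36.2 and 49.8 CPM (1.82). Tnfrsf9, the costimulatory receptor gene for 4-1BB, was also higher (1.22).

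Among the 65 lower genes were all 6 naive and homing genes tested, with a median log2 ratio of -1.14. Il7r, the receptor for the survival cytokine IL-7 (chr15:9505788-9530176), stood at 6.87, 25.6, 0 and 14.1 CPM against 144, 110.2, 100.4 and 96.6 CPM (-2.36), close to the 12.3, 30.5, 3.17 and 18.2 CPM of TIM-3+ Tex. S1pr1 (-1.33), Lef1 (-1.33), Tcf7 (-0.94) and Klf2 (-0.90) were lower. Klf2 differed from TIM-3+ Tex, since the class at 314, 491, 759.9 and 401 CPM still lay above the 134, 216, 72.8 and 179 CPM of TIM-3+ Tex by 1.14 on the log2 scale, and its 11 cells in library 3 stood above the agreeing 597 CPM. Ly6c2, a surface antigen of memory and recently activated cells (-1.83), the chemokine receptor gene Ccr2 (-1.39), Klhl6 (-1.37), Pdlim1 (-1.16) and Klf3 (-1.14) completed the 8 largest decreases with Il7r, S1pr1 and Lef1. In library 3 Klf3 stood higher in the class, at 127 against 87.0 CPM.

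Of 8 cytotoxic genes, 0 were called in either direction against agreeing cells, beside 3.77% of all genes tested. With that share, 0 of 8 does not set the list apart from other genes. At equal depth a Gzma UMI was found in 13.9% of the class, 24.4% of agreeing cells and 35.7% of TIM-3+ Tex. A Gzmb UMI was found in 47.0% of the class and 45.3% of agreeing cells. Gzmb stood at 513, 392, 905 and 434 CPM against 691, 324, 753 and 360.1 CPM and Gzmk at 527, 629, 651 and 556 CPM against 498, 493, 607 and 535 CPM, overlapping ranges in both. Cx3cr1, at 66.4, 76.9, 163 and 54.1 CPM, was not called, and of the 5 transitory effector genes tested only Tbx21 was, lower. The T cell identity genes (0 of 7), immediate early genes (0 of 11), mitochondrially encoded genes (0 of 12) and cytosolic ribosomal protein genes (0 of 83) were likewise not called. Except for the ribosomal list, these lists are also too short for 0 calls to differ from 3.77%. The median UMI count, 5405 against 5096, and the median mitochondrial share, 1.48% against 1.61%, were near those of agreeing cells, and a macrophage or plasma cell UMI was found in 36.2% against 36.4%. Cx3cr1 and Gzmb were thus not called between the class and agreeing cells, and Pdcd1, Lag3, Tigit, Tox and Rgs16 were not called between the class and TIM-3+ Tex, where their mean log2 ratios ran from -0.16 to 0.04. Against TIM-3+ Tex, Cx3cr1 was higher by 0.74 and Nr4a2 lower at -0.63.

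**Figure D4:**
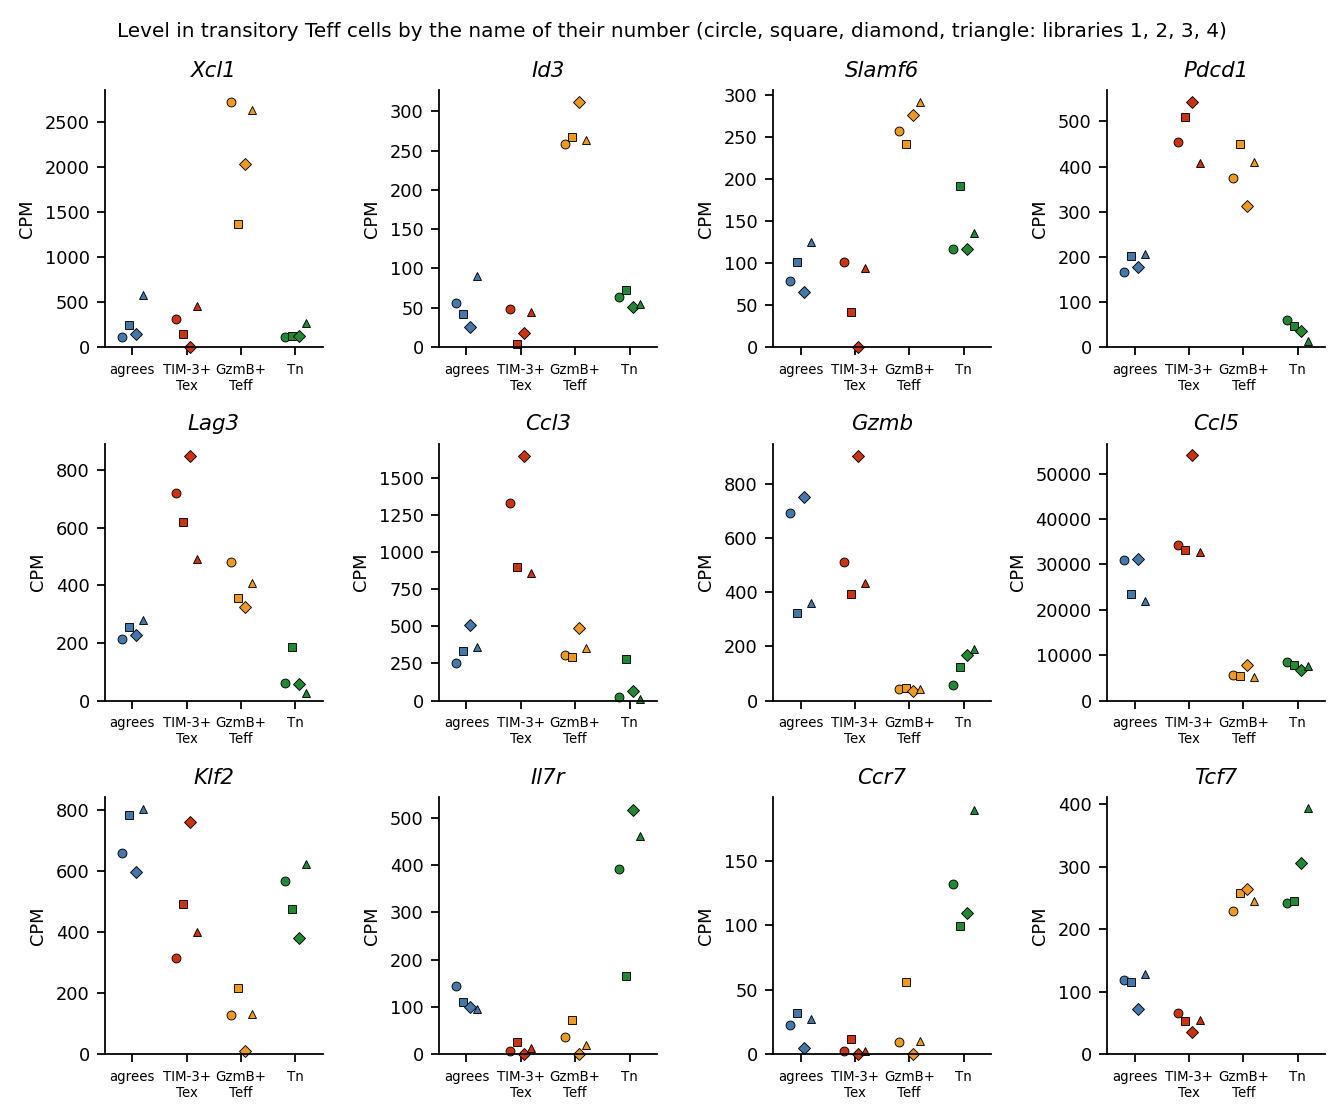
Level in CPM (linear axis from 0) of 12 genes in transitory Teff by the name their number belongs to, with 1 symbol for each of libraries 1 to 4. The Xcl1, Id3 and Slamf6 points of GzmB+ Teff numbered cells lie above all agreeing points and their Gzmb and Ccl5 points below them, TIM-3+ Tex numbered points are highest for Ccl3 and Lag3, and Tn numbered points are highest for Il7r and Ccr7.

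Tn numbered transitory Teff held the naive genes. Ccr7, the chemokine receptor for entry into lymph nodes, stood at 132, 99.3, 109 and 189.8 CPM in these 66 cells, 22.6, 32.1, 4.78 and 27.1 CPM in agreeing cells and 229, 249, 238 and 201 CPM in cells named and numbered Tn, and Il7r at 393, 165, 518 and 461 CPM, 144, 110.2, 100.4 and 96.6 CPM and 406, 401, 472 and 325 CPM. For both genes every library of the class lay above every library of the agreeing cells, although the libraries hold only 27, 18, 13 and 8 cells of it. At equal depth an Il7r UMI was found in 51.5% of the class, 14.4% of agreeing cells, 51.5% of Tn and 2.80% of TIM-3+ Tex.

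In library 1, the one with enough cells for the call, 8 of 9 naive and homing genes were higher and 0 lower, with a median log2 ratio of 1.39 beside -0.06 over all genes. Dapl1, a marker of naive cells of uncertain role (chr2:59484653-59505020), had the largest ratio (2.58), at 169.8, 52.9, 219 and 136 CPM over the libraries against 20.2, 24.7, 7.65 and 58.6 CPM. Ccr7 (2.12), the neonatal Fc receptor gene Fcgrt (1.92), Nsg2 (1.87), the chromatin organiser gene Satb1 (1.82), Usp18, a brake on interferon signalling (1.72), and the cofilin phosphatase gene Ssh2 (1.72) followed. Tcf7 (0.97) and Lef1 (1.08) were higher, and Klf2 was the naive gene not called. Averaged over all 4 libraries, a choice made after the data were seen, Ccr7 stood at 2.23 and Il7r at 1.58.

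Effector genes were lower in the class and still above those of Tn. Gzmk stood at 177, 285, 219 and 94.9 CPM against 498, 493, 607 and 535 CPM in agreeing cells and 17.8, 40.0, 18.3 and 19.5 CPM in Tn. Pdcd1 stood at 60.4, 46.3, 36.4 and 13.6 CPM against 167, 203, 178 and 207 CPM and 5.53, 8.97, 6.74 and 8.63 CPM, and Tigit at 52.8, 112, 87.5 and 27.1 CPM against 238, 226, 237 and 376 CPM and 16.6, 17.5, 10.5 and 16.3 CPM. All 3 genes lay between the agreeing cells and Tn in every library, but in library 4, with 8 cells and 73760 UMIs, the Pdcd1 level is 1 UMI and the Tigit level 2 UMIs. In library 1, 7 of 8 exhaustion genes, 6 of 8 cytotoxic genes, 4 of 5 cytokine and chemokine genes and 5 of 6 transitory effector genes were lower, and 0 genes of these lists were higher. The largest decreases were in Gzma (-4.48), Gzmb (-3.40), Ccl3 (-2.99), Ifng (-2.65), Ccl4 (-2.50) and S100a4 (-2.43). Klrg1, an inhibitory receptor of effector cells, had no UMI among the 27 cells of library 1, against 58.8 CPM in agreeing cells. Ifitm1, an interferon-induced membrane protein gene and the last of the 8 largest decreases, had none in any of the 66 cells. That allows up to 4.55% of such cells to hold an Ifitm1 UMI, and only 21 of 1324 agreeing cells (1.59%) held one. For Ifitm1 the 0 therefore does not show that fewer cells of the class hold it. The Gzma level of the class rests on few cells, since 5 of them held 84.4% of its UMIs.

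Genes of T cell identity and of the mitochondrial genome also differed. Of 7 T cell identity genes 4 were lower, Cd3e (-0.73), Cd3g, Cd8a (-0.77) and Cd2 (-0.66), toward their levels in Tn, such as 444, 340.4, 347 and 393 CPM for Cd8a. Of 12 mitochondrially encoded genes 10 were higher (median 0.75), beside a median mitochondrial share per cell of 2.5% against 1.61%. The median UMI count was 8619 against 5096. A second TRB chain was found in 6 of 44 cells with a TCR (13.6%) against 6.17% of agreeing cells with a TCR. A macrophage or plasma cell UMI was found in 60.6% of the 66 cells against 36.4%, a share not thinned to equal depth. The 10 genes of that list summed to 155, 152, 131 and 136 CPM in libraries 1 to 4 against 112, 127, 102 and 149 CPM, lower in library 4 only. With cells holding a second TRB chain left out, 154 of 157 gene ratios over all comparisons, these included, stayed within the limit given at the end. The part of depth, second chains and marker UMIs in these values was otherwise not tested. Against Tn, 551 of 2935 genes were called in library 1 (18.8%), 470 higher (16%) and 81 lower (2.76%). With the 4 libraries each of 8 or more cells, 499 of 3061 genes were called against agreeing cells (16.3%), 199 higher (6.5%) and 300 lower (9.8%). Under median-of-ratios scaling 35.7% of the called genes were higher in place of 48.0%, with the median of all genes moved from -0.06 to -0.13, and the naive genes named above lay far past that shift.

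**Figure D5:**
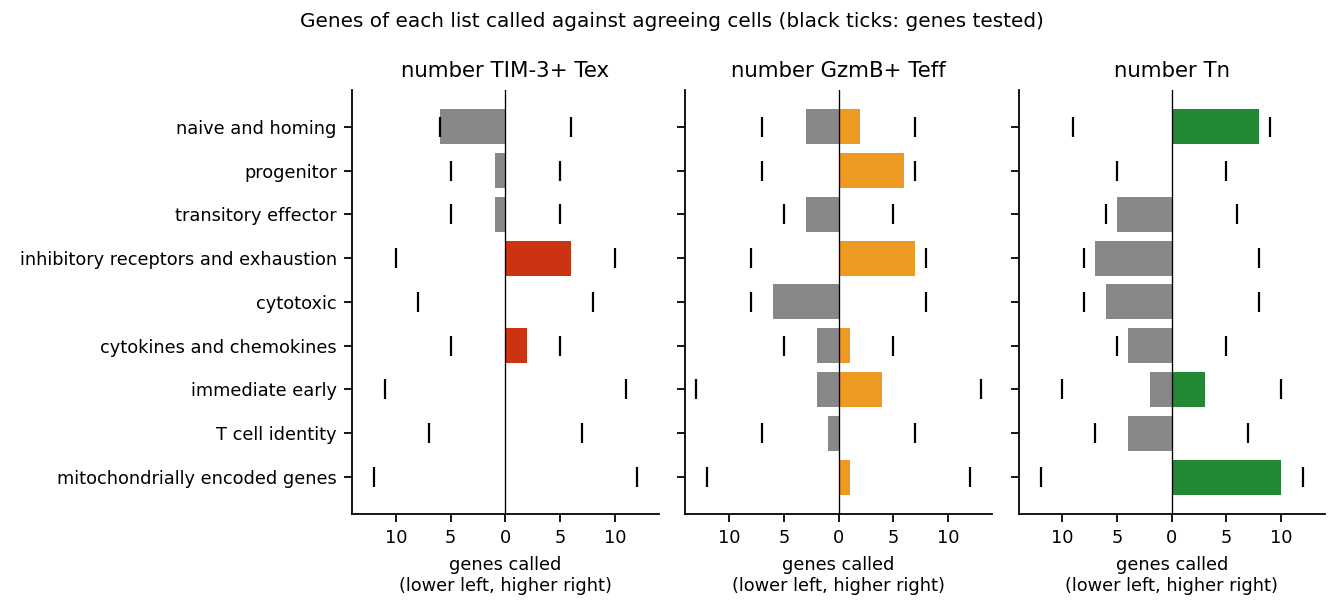
Number of genes of 9 lists called higher (right) or lower (left) than in agreeing transitory Teff, for the 3 classes; black ticks mark how many genes of a list were tested. The progenitor list lies to the right in the GzmB+ Teff numbered class (6 of 7), the naive list to the left in the TIM-3+ Tex numbered class (6 of 6) and to the right in the Tn numbered class (8 of 9, library 1).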

How the data were processed

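The data are single-cell RNA and TCR libraries (10x Genomics 5′) of sorted BM CD8+ T cells, 1 library of 5 pooled mice for each of the 4 treatments. The authors deposited UMI counts per gene and cell after Cell Ranger (7.00 in the submitters' processing notes, with mm10), reduced to like depth across libraries, for cells with 2500 to 25000 UMIs, under 15% mitochondrial RNA, and Cd3 and Cd8a expression. The deposited cell table gives a cell type name, a cluster number and a library number per cell, a mitochondrial share as a fraction, and UMAP coordinates, a score with no unit that the authors made with Monocle3. TCR clonotypes were assembled by the authors with Cell Ranger and scRepertoire. They were taken from the separately deposited TCR data and joined to the cells by barcode. Names for 17534 of 17561 gene IDs and all coordinates come from GENCODE M21 (GRCm38).

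Raw counts were summed per library and class and scaled to CPM, and the log2 ratio of CPM + 10 was made within each library with 20 or more cells on both sides and averaged with libraries weighed alike. Groups came from GEO labels. No count model was fitted, because names and numbers derive from the same genes and each treatment is 1 library. Named genes are the 8 largest called ratios in each direction, without TCR, immunoglobulin, mitochondrial and ribosomal protein genes, plus genes of fixed lists, and genes added later are marked in the text. The cells, lists and rules were chosen with earlier results of these data known. A few results under these rules are not reported here. Shares of cells with a UMI were taken after thinning each cell to 2500 UMIs. Intervals are exact Clopper-Pearson at 95%, for counting error only. TCR and depth measures were compared with an exact two-sided sign-flip permutation test over libraries. Libraries hold 15556967 to 38440687 UMIs. No doublet caller was run, and cells with a second TRB chain were kept and left out in an alternative. Alternatives were another pseudocount, no filter, thinning, other scalings, 1 cell per clonotype in each class and library, subsets of cells and leaving out each library. Scripts were tested on simulated data. Python 3.11.15, numpy 2.4.6, scipy 1.17.1, pandas 2.3.3, scikit-learn 1.9.0 and matplotlib 3.10.9 were used.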

Additional observations from a re-analysis of the deposited data

How the results depend on the processing

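Every treatment is 1 library of pooled mice and no label ties a library number to a treatment, so nothing here speaks to treatment, and the exact sign-flip test over 4 libraries cannot pass 0.05. Library 3 holds 11, 9 and 13 cells of the TIM-3+ Tex, GzmB+ Teff and Tn numbered classes, which limits every value given for it. Ratios and tests paired the classes within a library.

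With libraries weighed alike, 27.6% of transitory Teff disagreed, and 23.5% in cells without a macrophage or plasma cell UMI. There the GzmB+ Teff numbered share was 5.42% in place of 9.45% and the Tn numbered share 2.86% in place of 4.09%. Among cells with a TCR, each clonotype was also counted once per class and library. A clonotype found in several classes then counts in each of them. This gave 31.2% for all disagreeing cells and 6.81% for the Tn numbered share. Leaving out 1 library in turn gave 23.9% to 30.7% for all, 11.0% to 16.0% for TIM-3+ Tex, 7.19% to 11.1% for GzmB+ Teff and 3.26% to 5.04% for Tn numbers, the extremes without libraries 3 and 4.

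Counts of called genes rose where the filter on low values was dropped (all 196, TIM-3+ Tex 251, GzmB+ Teff 716, Tn 2405), after thinning (153, 199, 497 and 1598), with 1 cell per clonotype (TIM-3+ Tex 296, GzmB+ Teff 553), without cells holding a macrophage or plasma cell UMI (179 and 634) and, an alternative added after the data were seen, among cells between the 25th and 75th percentile of UMIs (218 and 602); summed over libraries, Tn numbered cells gave 465. Of the reported calls, 86 of 107 and 250 of 317 remained with 1 cell per clonotype. Of 1986 gene ratios under an alternative, 1713 stayed within a set limit, 272 moved past it and 1 reversed. The limit was the spread over libraries, or for Tn numbered cells the counting interval of library 1. The reversed ratio was Prf1 in Tn numbered cells, at 0.086 after thinning. The 1713 include all ratios with 1 library left out, 104 without library 1 and 157 without each other library. By construction those could not move past the limit, so they do not bear on stability. With too few Tn numbered cells, the clonotype, marker UMI and percentile subsets and the fit without library 1 gave no gene ratio for them.

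Detected genes at equal depth differed from agreeing cells by 0.281 (TIM-3+ Tex) and 1.45 (GzmB+ Teff) as means over cells, against -2.13 and -5.38 as medians. The share of cells with a TCR call differed by -12.8 points for GzmB+ Teff numbered cells and by 3.90 points within the middle range of UMIs; for TIM-3+ Tex numbered cells it ran from -3.66 without library 3 to 4.24 without library 2, and their log2 ratio of median UMIs from -0.052 to 0.110. The Tn sharing difference of 0.69 points was -0.23 by TRB chain alone, -2.53 in the middle range, and ran from -0.66 without library 1 to 2.06 without library 4. The cause of these moves was not tested.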

Other observations

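Ifitm1, which the rule named for the Tn numbered class, had 0 UMIs in the 558 cells of the 3 disagreeing classes, which allows up to 0.538% of such cells to hold a UMI. Among the 1324 agreeing cells 421 Ifitm1 UMIs were found in 21 cells (1.59%), and the 5 cells with the most held 71.3% of them. The agreeing cells therefore include a few cells with a strong signal of this gene, and no fold between the classes is given.

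The TCR V and J genes, kept out of the named genes, also differed between the classes. Of 19 tested in TIM-3+ Tex numbered cells 4 were higher (Trbv17, Trav13n-1, Trav16n and Trav12-2) and 2 lower, beside 3.77% of all genes called. In GzmB+ Teff numbered cells 21 were tested, with 2 higher (Trbv15 and Trav9-4) and 6 lower, Trbv17 among them, beside 10.7%. In Tn numbered cells, in library 1 alone, 17 were tested, with 4 higher and 10 lower, beside 23.2%. Trbv17, Trav16n and Trav9-4 are V genes of the large clonotypes whose sequences are given in the report, and Trbv15 is not.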
